A study of Homo sapiens with 22 samples.

Results

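ATAC-seq peak lists of WM989 melanoma cells sorted for high surface NGFR were compared with those of the control sort labelled Mix, taken to be cells negative for NGFR and EGFR. The comparison used 6 of the 12 ATAC-seq samples in a series of 22 samples, chosen by their labels: NGFR-High 1 to 3 and Mix 1 to 3. WM989 is a BRAF-mutant human melanoma line, and by the study's account the cells came from a population bottlenecked through single cells, so that all libraries share a clonal background. The labels name no drug and no time for these samples, and the sort itself is their only listed treatment. For ATAC-seq the methods list 3 marker-high sorts and a marker-negative one, and the samples labelled Mix are taken here to be the marker-negative sort, although the sources do not state this and mixed cells in other experiments of the study were not selected by marker. The EGFR-High and EGFR-NGFR-High sorts, with 3 libraries each, serve to show where a peak of the comparison also occurs, and their peaks also enter the regions described below and 1 alternative fit. Each sort was made in triplicate, and nothing in the labels says that the triplicates were separate cultures, so the p-values measure the spread between these sorted samples only.

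ATAC-seq reads out open chromatin, since the transposase Tn5 inserts its adapters where DNA is free of nucleosomes. NGFR encodes p75NTR, a receptor of neurotrophins that marks neural crest cells and, in melanoma, cells with a dedifferentiated, therapy-tolerant state. In melanocytic cells SOX10 and MITF maintain the pigment lineage through SOX motifs and E-boxes, whereas AP-1, a dimer of FOS and JUN family proteins, and the TEAD factors act at distal enhancers of mesenchymal and stress-responsive genes. EGFR and AXL are receptor tyrosine kinases that mark the primed state in this line.

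A value below is the fold enrichment that MACS2 gave to a peak. It is a linear ratio of insertions at the summit over the background of that library, with 1 added to each. Overlapping peaks were joined to regions, the highest value in a region was used for each library, and 151844 regions with a peak in at least 3 of the 12 libraries were kept. The NGFR-High lists held 170307, 159758 and 171270 distinct peaks, and the Mix lists held 148429, 165476 and 162226. The means of 167112 ± 6387 and 158710 ± 9051 (SD, n = 3 each) did not differ beyond their spread (exact permutation test, two-sided, p = 0.3), and 3 libraries against 3 cannot go below 0.1. Read depth was not used here, but the background in the lists, in overlapping insertions, was between 1.13 and 1.51 in NGFR-High and between 1.07 and 1.23 in Mix, and the weakest listed peaks held only 5 or 6 overlapping insertions. Lists of the same sort shared more of the bases their peaks cover than lists of different sorts. The Jaccard index here is the bases covered by peaks of both lists as a share of those covered in either. Its mean was 0.723 within a sort (0.713 to 0.734) and 0.678 between the sorts (0.656 to 0.697). On the first principal component, with 50.6% of the variance, the NGFR-High libraries lay at 91.0, 55.2 and 40.1 and the Mix libraries between -63.7 and -60.5. NGFR-High 1 thus stood farthest from Mix, and the totals of higher, lower, gained and lost regions without it are given beside those with it.

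The following stretches of hg38, each of the plus strand and 75 bases to either side of the summit, show the kinds of region the comparison turned on. The NGFR promoter is shown because cells were sorted on its product, and the others are among the strong changed regions, chosen because they hold an AP-1, SOX or E-box word this close to the summit. Gained regions, rises and the AXL and EGFR regions were first picked for an AP-1 word within 150 bases of the summit, the EGFR one also for a large rise. Lost regions were picked for a SOX word and an E-box in the same span. The stretches thus illustrate the words and are no count of them, and the AP-1 words at AXL and EGFR follow from that choice. The regions of MYEOV and ATXN1, which hold no word this close, are not shown. Capitals mark AP-1 words (TGACTCA and TGAGTCA), SOX words (ACAATG and ACAAAG, or CATTGT and CTTTGT on the other strand) and E-boxes (CACGTG and CATGTG, or CACATG on the other strand).
NGFR promoter, higher in NGFR-High, chr17:49496498-49496648: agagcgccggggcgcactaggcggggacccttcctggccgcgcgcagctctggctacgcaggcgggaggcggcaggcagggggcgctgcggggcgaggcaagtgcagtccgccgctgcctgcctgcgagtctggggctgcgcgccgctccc
AXL promoter, higher, chr19:41225820-41225970: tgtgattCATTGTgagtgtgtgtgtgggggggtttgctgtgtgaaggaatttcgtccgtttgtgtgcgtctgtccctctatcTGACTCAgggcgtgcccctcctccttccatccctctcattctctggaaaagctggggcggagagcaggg
EGFR intron, higher, chr7:55132984-55133134: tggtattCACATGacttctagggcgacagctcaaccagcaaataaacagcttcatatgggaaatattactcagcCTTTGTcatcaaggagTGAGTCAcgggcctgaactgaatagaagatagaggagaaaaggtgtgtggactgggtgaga
DNAJC6 intron, gained, chr1:65260995-65261145: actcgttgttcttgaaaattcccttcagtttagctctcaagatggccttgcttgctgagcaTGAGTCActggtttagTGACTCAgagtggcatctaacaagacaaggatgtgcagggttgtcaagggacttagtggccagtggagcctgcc
MIR3681HG intron, gained, chr2:12060028-12060178: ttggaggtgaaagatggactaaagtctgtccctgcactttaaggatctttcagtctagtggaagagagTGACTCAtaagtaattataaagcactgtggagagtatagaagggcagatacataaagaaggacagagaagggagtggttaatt
Intergenic region nearest to RHOB, gained, chr2:20496147-20496297: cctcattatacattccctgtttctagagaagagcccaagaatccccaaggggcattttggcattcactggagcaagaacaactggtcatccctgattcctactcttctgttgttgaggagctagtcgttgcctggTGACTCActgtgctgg
B4GALNT2 intron, higher, chr17:49147113-49147263: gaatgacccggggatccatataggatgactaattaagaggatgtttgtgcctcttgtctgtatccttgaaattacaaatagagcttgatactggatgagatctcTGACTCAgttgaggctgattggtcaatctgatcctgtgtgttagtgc
Intron of an lncRNA, nearest to FAM98A, gained, chr2:33810196-33810346: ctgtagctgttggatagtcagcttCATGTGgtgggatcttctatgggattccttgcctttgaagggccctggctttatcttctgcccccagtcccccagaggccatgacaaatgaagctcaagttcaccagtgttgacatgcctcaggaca
PHF20 intron, higher, chr20:35875561-35875711: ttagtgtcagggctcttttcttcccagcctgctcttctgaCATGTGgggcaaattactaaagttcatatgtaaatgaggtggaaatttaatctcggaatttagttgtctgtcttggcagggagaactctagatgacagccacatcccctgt
MAPK4 intron, lower, chr18:50611530-50611680: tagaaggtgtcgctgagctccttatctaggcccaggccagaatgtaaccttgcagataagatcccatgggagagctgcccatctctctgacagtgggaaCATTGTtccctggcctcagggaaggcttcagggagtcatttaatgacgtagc
C3orf70 intron, lower, chr3:185103875-185104025: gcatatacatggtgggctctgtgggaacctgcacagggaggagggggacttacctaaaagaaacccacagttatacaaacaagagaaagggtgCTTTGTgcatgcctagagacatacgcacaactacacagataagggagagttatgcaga
Intergenic region nearest to TSHZ3, lower, chr19:31492127-31492277: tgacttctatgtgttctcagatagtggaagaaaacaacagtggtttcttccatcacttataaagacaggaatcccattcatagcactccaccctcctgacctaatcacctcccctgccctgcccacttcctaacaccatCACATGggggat
ADGRV1 intron, lost, chr5:91019045-91019195: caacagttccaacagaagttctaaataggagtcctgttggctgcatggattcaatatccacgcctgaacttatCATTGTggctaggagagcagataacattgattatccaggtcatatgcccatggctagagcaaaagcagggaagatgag
ISX intron, lost, chr22:35083409-35083559: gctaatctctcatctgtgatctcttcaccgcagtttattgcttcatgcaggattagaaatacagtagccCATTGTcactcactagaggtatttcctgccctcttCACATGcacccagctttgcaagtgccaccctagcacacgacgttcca
The NGFR stretch holds none of these words, AXL holds an AP-1 word and a SOX word, and EGFR holds a word of each kind. DNAJC6 holds 2 AP-1 words. The regions of FAM98A and PHF20 hold an E-box and no AP-1 word here, although both have an AP-1 word farther from the summit.

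NGFR, whose product was the basis of the sort, had a more accessible promoter in NGFR-High than in Mix. The strongest promoter peak, at chr17:49496006-49497496 over the starts of the transcripts NGFR-202 and NGFR-203, had a fold enrichment of 29.4, 22.7 and 22.1 in NGFR-High and of 13.4, 12.3 and 12.6 in Mix. All 3 sorted libraries lay above all 3 Mix libraries, and the log2 difference was 0.91 ± 0.20 (SE), with a limma adjusted p of 0.000533. With the mean of the peaks in a region in place of the highest the difference was 1.38 ± 0.28 (adjusted p = 0.0217). The adjoining peak at chr17:49494504-49495998, which holds the start of NGFR-201 and thus of the annotated gene, rose from 5.82, 7.54 and 9.68 in Mix to 16.7, 14.0 and 14.6 (log2 difference 0.96 ± 0.25, adjusted p = 0.00378). The region at the 3′ end of the gene, whose summit lies within the antisense transcript NGFR-AS1, was high in both sorts, between 95.3 and 107 in NGFR-High and between 72.6 and 78.0 in Mix, and differed by 0.41 ± 0.10 (adjusted p = 0.00251). Of the 11 regions of the NGFR locus, meaning those whose nearest protein-coding start is NGFR within 100000 bases, 3 were gained and none was lost, and of the 4 that were tested 3 were higher and none was lower. Over the loci of all coding genes 3.35% of regions were gained and 7.53% of those tested were higher. Gained means a peak in all 3 NGFR-High and in no Mix library. Of these 3 gained regions 2 lay within 1000 bases of its starts, with mean values of 5.72 and 4.91, the first of them over a separate transcript model still to be established, and 1 lay within an upstream lncRNA with a mean of 7.93. The farthest upstream region of the locus was listed at 27.8, 13.6 and 16.9 in NGFR-High and in Mix only once, at 3.77.

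**Figure D1:**
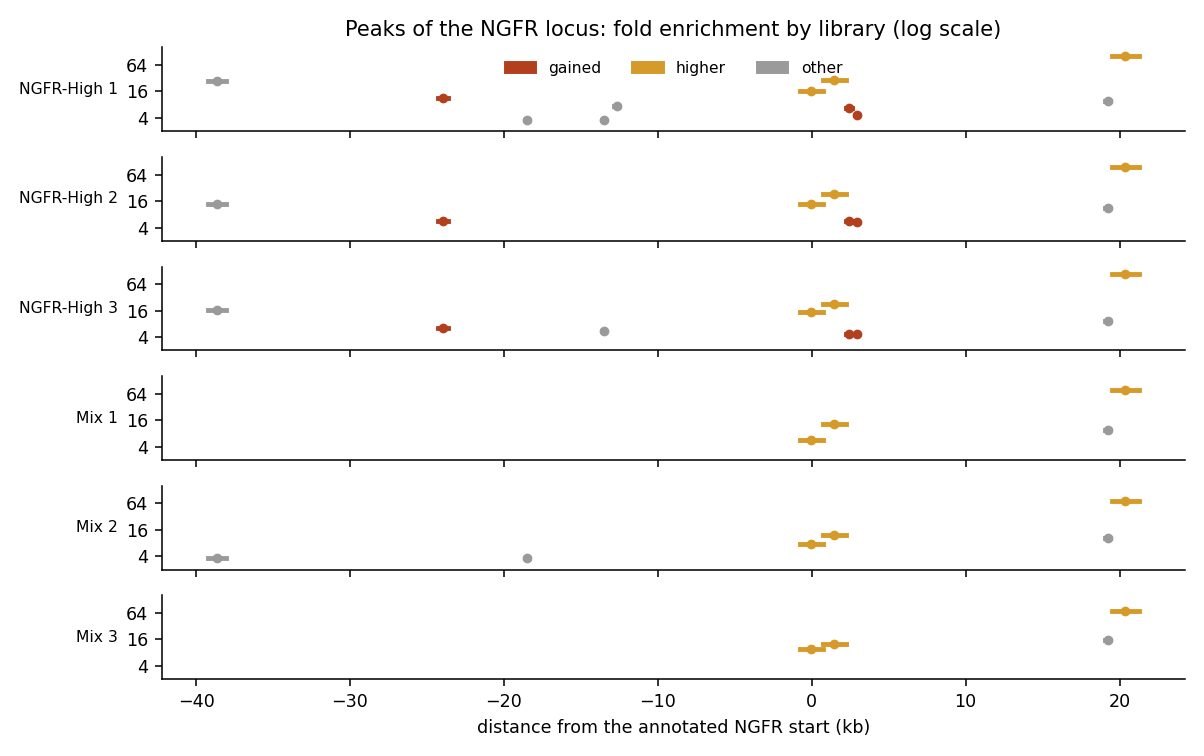
Fold enrichment (log scale) of each peak region of the NGFR locus by distance from the annotated start in kilobases, with 1 panel per library; the line gives the width of a region and its colour its class. The 3 regions in red were listed in every NGFR-High library and in no Mix library, and the 3 in yellow had higher values in NGFR-High.

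EGFR was the other sort marker, and the label of the NGFR-High cells names NGFR alone. Its promoter peak had values of 9.54, 9.62 and 7.05 in NGFR-High and of 5.38, 4.24 and 5.81 in Mix, so that the groups did not overlap, but the log2 difference of 0.73 ± 0.27 missed the threshold (limma adjusted p = 0.0537). Over the alternative fits its adjusted p ran from 0.0306 to 0.214. The locus held 32 regions, of which 1 was gained, where the loci of all coding genes had 3.35% of regions gained. Of the 14 tested, 3 were higher and 2 were lower, beside 7.53% and 6.32% over the loci of all coding genes. The largest rise was the intronic region at chr7:55132614-55133560, printed above around its summit, with 10.7, 14.4 and 15.98 against 4.03, 4.24 and 5.32 (log2 difference 1.55 ± 0.27, adjusted p = 7.61e-06). A second intronic region, at chr7:55085867-55087589, had 60.8, 46.8 and 73.3 against 41.2, 36.8 and 32.9 (0.65 ± 0.14, adjusted p = 0.000223). Both of these regions and the third, an exonic one, hold an AP-1 word, and the 2 lower regions hold none. In bulk ATAC-seq a change in every cell and a change in the share of cells that carry a peak cannot be told apart.

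Across the genome, NGFR-High and Mix differed at many regions in either direction. Of 85498 regions with a peak in all 6 libraries, 6668 were higher (7.8%) and 5911 were lower (6.91%) in NGFR-High (limma on log2 values, adjusted p under 0.05). The median log2 difference was 0.80 among the higher and -0.78 among the lower regions, against 0.01 over all regions tested. The rises reached further than the falls: 1871 higher regions differed by 1 or more and 56 by 2 or more, while 1061 lower regions differed by 1 or more and none by 2. NGFR-High and Mix did not overlap in 6360 of the higher and 5294 of the lower regions, beside 30.1% of all regions tested. Without NGFR-High 1 there were 3734 higher and 3343 lower regions, and without Mix 2 there were 3850 lower regions. With the mean of the peaks in a region in place of the highest value, 1701 regions were higher and 1084 lower.

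**Figure D2:**
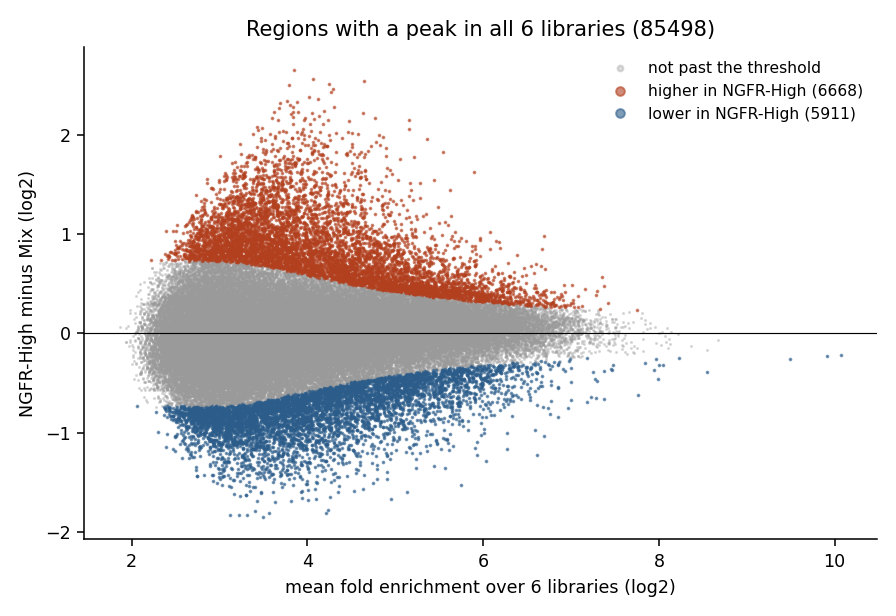
Log2 difference of fold enrichment, NGFR-High minus Mix, against the log2 of the mean fold enrichment over the 6 libraries, with 1 point per region with a peak in all 6. Red points (6668) were higher and blue points (5911) lower in NGFR-High; the rises extend to 2.65 and the falls to -1.84.

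The 5 largest rises were in introns. The first, at chr5:34052866-34053961 within the C1QTNF3-AMACR readthrough gene, went from 4.48, 3.77 and 3.39 in Mix to 28.6, 22.3 and 24.0 in NGFR-High, a log2 difference of 2.65 ± 0.25 (adjusted p = 2.08e-13). The second, at chr6:16929778-16930337 in an lncRNA with ATXN1 as the nearest coding gene, had 33.0, 31.5 and 21.6 against 4.48, 4.71 and 4.84 (2.56 ± 0.24). The others lay in RGS20 (2.54), a regulator of G protein signalling, in B4GALNT2 (2.51), a glycosyltransferase, and in PHF20 (2.498). The B4GALNT2 region, with 43.7, 26.7 and 27.3 against 4.93, 5.18 and 6.29, lies 347775 bases upstream of the NGFR start. All 5 had peaks in every library of the EGFR-High and EGFR-NGFR-High sorts too, where the C1QTNF3-AMACR region reached 16.5 to 22.2 and 24.8 to 32.4.

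The 5 largest falls were smaller in size and were intronic or intergenic. The region at chr18:50611431-50612102 in MAPK4, an atypical MAP kinase, had 3.58, 6.56 and 5.17 in NGFR-High against 20.6, 17.4 and 14.5 in Mix, a log2 difference of -1.84 ± 0.26 (adjusted p = 1.04e-07). The region at chr3:185103570-185104204 in C3orf70 had 4.77, 3.94 and 4.23 against 21.95, 10.4 and 14.5 (-1.83 ± 0.27). The intergenic region at chr19:31491793-31492563, nearest to the developmental regulator TSHZ3, had 3.98, 6.56 and 5.64 against 20.6, 15.1 and 18.9 (-1.81 ± 0.26). The remaining falls lay on chromosome 8, nearest to TCEA1 (-1.83) and HNF4G (-1.82). None of the 5 had an AP-1 word within 150 bases of the summit, and each had at least 1 SOX word there.

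By presence alone, 5341 regions were gained (3.52% of all consensus regions) and 1563 were lost (1.03%), lost meaning a peak in all 3 Mix and in no NGFR-High library. Gained regions were weak peaks on the whole, with a median fold enrichment of 5.60 against 14.8 for regions with a peak in all 6 libraries, yet 290 reached a mean of 10 or more and the highest 25.2. Lost regions had a median of 5.13, none reached 10, and the highest stood at 9.51. Gained regions, as joined over all 12 libraries, were also wider, at a median of 399 bases against 294 bases for lost ones. The part of peaks from the other sorts in these widths was not tested. When only the 50000 peaks of highest significance were used from each library, 1718 regions were gained and 1076 lost, and with 100000 peaks the counts were 3274 and 1632. With 1 library left out, and so only 2 of a group required, the counts were larger: 6284 were gained and 2207 lost without NGFR-High 1, 8502 were gained without NGFR-High 2, and 3369 were lost without NGFR-High 3, 2943 without Mix 1 and 2463 without Mix 3. The background in the lists averaged 1.31 in NGFR-High and 1.14 in Mix, with overlapping groups (exact permutation test, p = 0.2, n = 3 each), and its part in the counts of gains and losses was not tested.

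The strongest gained region lay at chr2:12059564-12060579, in an intron of the lncRNA MIR3681HG, with 31.8, 24.5 and 19.3 in NGFR-High and no peak in Mix. The second, at chr1:65260822-65261466, lay in an intron of DNAJC6, which encodes the clathrin-uncoating cofactor auxilin, and had 33.4, 20.6 and 20.7. The third, at chr11:69320974-69322594 in an intron of MYEOV, had 28.6, 18.4 and 18.3. The rest of the 10 strongest had means between 18.7 and 21.6 and lay nearest to ZFP36L2, FOXL1, C20orf85 (2 regions), RHOB, RIN3 and FAM98A. None of these 10 was at a promoter, and 5 of them held an AP-1 word. Of the 10, all had peaks in every EGFR-NGFR-High library, and the region nearest to RHOB was the only one to lack a peak in an EGFR-High library.

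The strongest lost region, at chr5:91018888-91019346 in an intron of the adhesion receptor gene ADGRV1, had 8.96, 10.4 and 9.196 in Mix. The next lay in an intron of SPECC1, with 6.27, 10.8 and 11.1, and in the intergenic sequence nearest to PAXIP1, with 11.6, 4.71 and 11.6. The other 7 of the 10 strongest had means between 8.55 and 9.24 and included introns of ISX, NPAS2, CMTR1 and ZDHHC11B. Held against the other sorts, gained regions had a peak in all 3 EGFR-NGFR-High libraries in 67.4% of cases and in all 3 EGFR-High libraries in 26.6%, where all consensus regions had 69.3% and 60.2%. For lost regions the shares were 7.997% and 7.42%, and 36.8% had no peak in any EGFR-NGFR-High library and 35.6% none in any EGFR-High library. The shares with no peak were 2.79% and 27.2% of gained and 4.48% and 11.5% of all consensus regions. The higher regions had library medians of 19.8 to 28.0 in EGFR-NGFR-High and 14.7 to 16.6 in EGFR-High, set beside 21.2 to 25.1 in NGFR-High and 11.1 to 11.6 in Mix. At the lower regions the medians were 12.8 to 14.6 in EGFR-NGFR-High, 11.95 to 14.2 in EGFR-High, 10.7 to 13.6 in NGFR-High and 20.3 to 21.5 in Mix.

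Gained and lost regions lay mostly away from promoters. A promoter, here any place within 1000 bases of an annotated transcript start, took 9.62% of gained and 8.13% of lost regions, against 19.0% of all consensus regions. Introns held 54.4% of gained and 55.5% of lost regions, against 48.1% of all consensus regions. Intergenic sequence held 32.5% and 33.1%, against 28.5%, so that gained and lost regions had similar shares in these places. Over 100000 bases from a coding start lay 22.4% of gained, 27.6% of lost and 18.5% of all consensus regions, and these differences were not tested. Among regions with a peak in all 6 libraries, promoters were called higher in 5.70% and lower in 3.04% of cases, introns in 8.73% and 8.48%, and intergenic regions in 8.31% and 7.76%. The median log2 difference was 0.08 at promoters and -0.03 in introns, so a promoter of average behaviour sat slightly above 0.

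AP-1 words were more frequent in gained than in lost regions. In windows of 150 bases to either side of the summit, TGACTCA or TGAGTCA occurred in 33.0% of gained and 9.47% of lost regions, against 15.3% of all consensus regions. Among regions with a peak in all 6 libraries the shares were 33.2% for higher and 10.4% for lower ones. Away from promoters the share rose with the size of the difference, from 9.83% at log2 differences of -2 to -1, through 14.4% around 0 and 30.5% at 0.5 to 1, to 39.6% at 1 to 2 and 58.8% of the 51 regions above 2. Regions away from promoters with an AP-1 word were higher in 18.6% and lower in 5.34% of cases, while regions without one were higher in 6.54% and lower in 8.65%. These words sat close to the summit, at a median of 33 bases in gained and 57 bases in lost regions, and 66.4% and 44.4% of them lay within 50 bases of it. In regions with a peak in all 6 libraries that were neither higher nor lower the median was 41 bases and the share 58.0%, where an even spread would give 34.2%. AP-1 and TEAD words occurred together in 8.16% of gained, 1.47% of lost and 3.35% of all regions.

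The other words were counted in the same windows, on both strands. The TEAD word GGAATG occurred in 28.6% of gained, 19.4% of lost and 20.8% of all regions. E-boxes went the other way, with 22.7% of gained and 36.1% of lost regions against 25.6% of all, and 24.1% of higher and 36.0% of lower ones. SOX words occurred in 39.9% of gained and 49.1% of lost regions against 41.3% of all, and in 43.1% of higher and 54.4% of lower ones. The RUNX word TGTGGT occurred in 26.8% of gained and 33.0% of lost regions against 26.5% of all. The ETS word CCGGAAG, a word of promoters, was rare in both, at 0.768% and 1.09% against 2.82% of all. A word is a match of letters and not a bound factor, and the median GC content of gained and lost windows was similar at 42.9% and 43.5%.

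**Figure D3:**
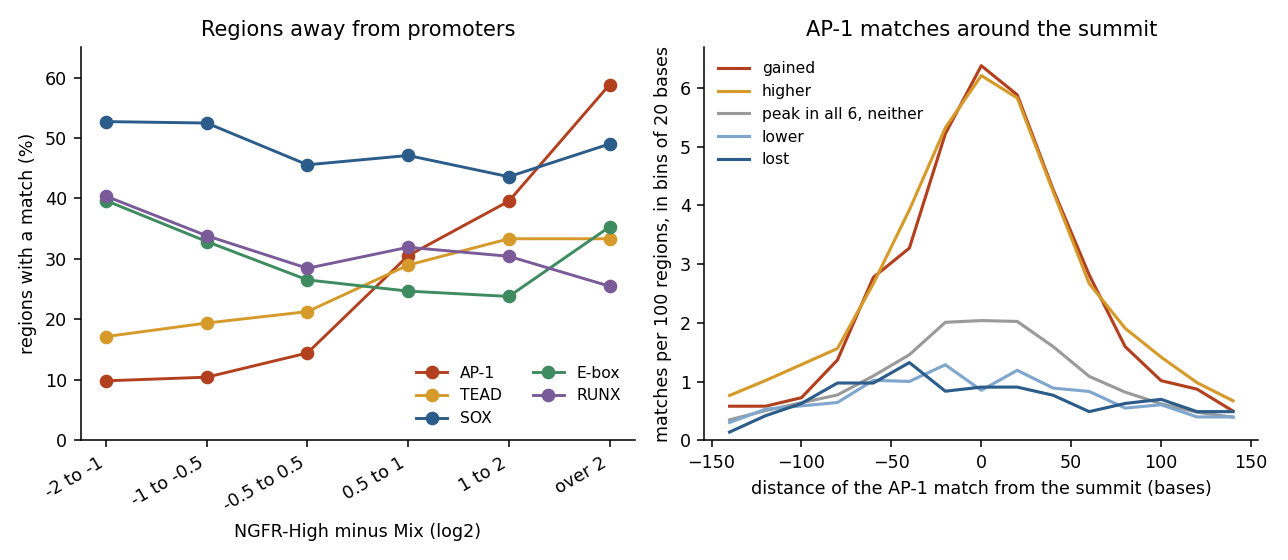
Left, percent of regions away from promoters, with a peak in all 6 libraries, that hold each word, by the log2 difference NGFR-High minus Mix; right, AP-1 matches per 100 regions by distance from the summit in bases. The AP-1 share climbs from 9.83% to 58.8%, and AP-1 words near the summit are more frequent in gained and higher regions than in lost and lower regions.

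Several promoters of genes that mark the primed state were more accessible, and the others did not pass the test. For each protein-coding gene the strongest region within 1000 bases of any of its transcript starts was taken. Such a start can lie inside the gene, as for AXL, TGFBI, COL5A2 and AQP1 among others, and need not be the main one. In all, 14022 genes had a peak there in all 6 libraries, of which 720 were higher (5.13%) and 188 lower (1.34%), with a median log2 difference of 0.10. Of 11 primed markers tested, 6 were higher and none lower, with a median of 0.52, and this list was drawn from markers the study and earlier work had named in these cells. AXL, a receptor tyrosine kinase, had 22.3, 19.2 and 16.9 in NGFR-High and 8.06, 7.07 and 12.6 in Mix (log2 difference 1.08 ± 0.24, adjusted p = 0.000467). FN1, the matrix protein fibronectin, had 56.1, 42.4 and 32.4 against 23.3, 23.1 and 25.2 (0.80 ± 0.16, adjusted p = 0.000103). For both genes the groups did not overlap. NT5E (0.49) and COL1A1 (0.52) also rose, and NGFR itself is among the 6. The strongest promoter peaks of EGFR (0.73), FGFR1 (0.10), FOSL1 (0.06), JUN (-0.02) and VGF (-0.19) did not pass the test.

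Genes of the matrix and of cell adhesion held the largest number of changed promoters among the lists. Of 26 tested, 9 were higher (34.6%) and none lower, with a median of 0.28, where 5.13% of all protein-coding genes tested were higher and 1.34% lower. COL5A2, a fibrillar collagen chain, rose from 4.93, 6.60 and 5.32 to 12.7, 8.75 and 10.3 (0.88 ± 0.27, adjusted p = 0.0151). CD44, the hyaluronan receptor, rose from 13.9, 15.6 and 13.6 to 33.0, 23.6 and 23.5 (0.85 ± 0.19, adjusted p = 0.000848), and 6 of the 39 regions in its locus were gained. ITGA3, an integrin subunit for laminin, rose from 27.8, 29.2 and 40.2 to 66.0, 53.8 and 48.9 (0.77 ± 0.14). Also, ITGA3 and ITGB5 have further promoter regions, named after their values were seen, with larger rises. The second ITGA3 region had 30.2, 26.7 and 17.4 against 6.27, 4.24 and 3.87 (2.33 ± 0.26, adjusted p = 3.84e-11), and an ITGB5 region, for an integrin subunit that binds vitronectin, had 72.8, 52.0 and 49.8 against 22.4, 19.3 and 17.4 (1.51 ± 0.15). Another ITGB5 region fell from 22.8, 23.6 and 30.5 to 14.3, 19.7 and 17.9 (-0.60 ± 0.19, adjusted p = 0.0183). In all, 42 of 475 regions in these loci were gained (8.84%), against 3.35% over the loci of all protein-coding genes, and 3 were lost. Loci of the fibroblast markers had 10 of 72 regions gained (13.9%) and those of the endothelial markers 10 of 100 (10.0%). COL1A1 is in both the fibroblast and the matrix list, and the part of such cells in these counts was not tested.

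In the TGF-beta list 4 of 23 promoters were higher (17.4%) and none lower (median 0.17). Of all protein-coding genes tested 5.13% were higher and 1.34% lower, and of the 12 housekeeping genes tested 16.7% were higher. TGFBI, a matrix protein induced by TGF-beta, made the largest rise among the strongest promoter peaks of the listed genes, from 4.93, 4.71 and 5.32 to 18.3, 16.6 and 13.6 (1.65 ± 0.26, adjusted p = 1.04e-06). The activin receptor genes ACVR1B (0.55) and ACVR2A (0.46) rose too. A further promoter region of ACVR1, which encodes another receptor of this family and was named after its values were seen, fell from 39.0, 41.5 and 31.9 to 28.6, 23.6 and 24.9 (-0.57 ± 0.16, adjusted p = 0.00554). Further regions of LTBP2 (1.23) and SMAD7 (0.72 and 0.50) rose. Counting every region within 1000 bases of a transcript start of this list, 7 of 39 tested were higher (17.9%) and only that of ACVR1 was lower. Over all protein-coding genes 5.55% of such regions were higher and 2.65% lower. In the YAP/TEAD list 2 of 14 were higher (14.3%, median 0.14): CCN1, a secreted YAP target, went from 6.27, 2.83 and 4.84 to 12.7, 12.7 and 14.6 (1.56 ± 0.27), and VGLL4 rose by 0.53 on the log2 scale. WWTR1, which encodes the coactivator TAZ, had 5 gained regions among 46 although its promoter (0.11) did not pass the test. The loci of all coding genes had 3.35% of regions gained.

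In the AP-1 list 3 of 14 promoters were higher (21.4%, median 0.11), and these were MAFK (0.35), JUNB (0.30) and FOSL2 (0.30). That list is wider than the FOS and JUN families, since it also holds BATF, ATF and MAF genes, and MAFK is one of the latter. Among neural crest and EMT factors 3 of 18 were higher (16.7%, median 0.19): TWIST1 (0.47), SOX4 (0.43) and ETS1 (0.32). AQP1, a water channel of neural crest cells, had a promoter peak of 7.95, 4.37 and 6.11 in NGFR-High and none in Mix. In its locus 5 of the 10 regions were gained, against 3.35% over the loci of all coding genes. Of 21 receptor tyrosine kinases 4 were higher (median 0.10), namely AXL, PDGFRB (0.50), ROR1 (0.44) and IGF1R (0.39). Of the 13 genes of neurotrophin signaling only NGFR itself was higher (median 0.16), so that the ligands and the other receptors of the pathway with a peak in all 6 libraries did not pass the test. None of these lists held a lower promoter by its strongest peak. Among 12 housekeeping genes GAPDH (0.28) and TUBB (0.27) were higher (16.7%), with a list median of 0.14. Of all protein-coding genes tested 5.13% were higher and 1.34% lower. At an unadjusted p under 0.05 the counts lower were 1 for the TGF-beta list, 1 for the receptor tyrosine kinases and 0 for the other lists of this kind.

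**Figure D4:**
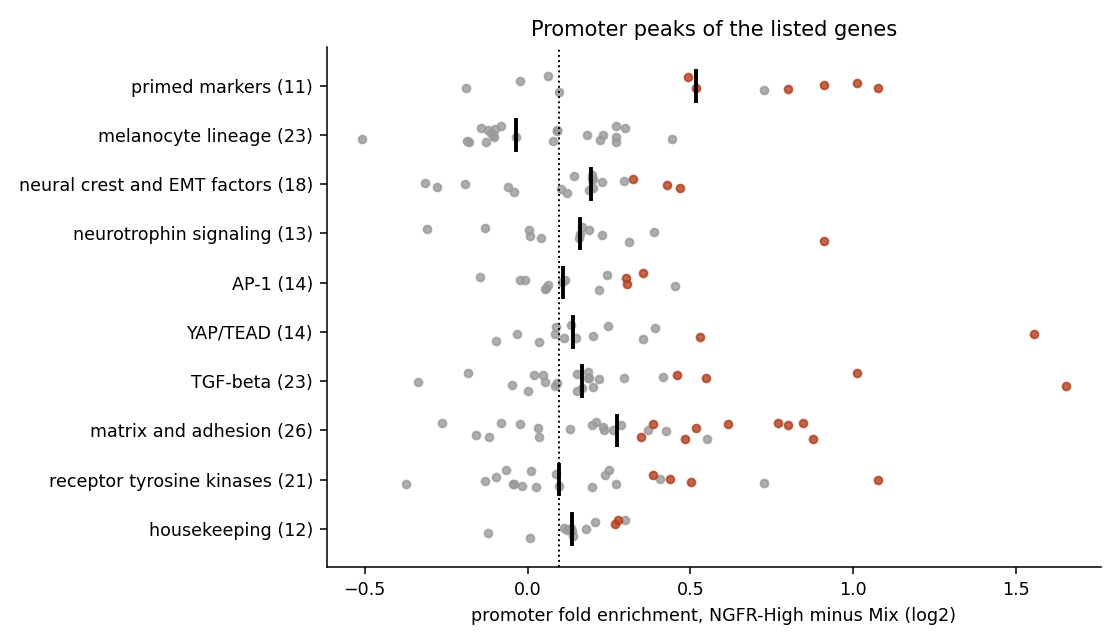
Log2 difference of fold enrichment, NGFR-High minus Mix, at the strongest promoter peak of each listed gene with a peak in all 6 libraries (number in parentheses); red points passed the test as higher, grey points did not pass, black bars are list medians and the dotted line is the median of all protein-coding genes, 0.10. Primed markers have the highest median, 0.52, and the melanocyte lineage genes lie around 0.

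Promoters of the melanocyte lineage had a peak in all 6 libraries at 23 of 24 genes. Of 23 tested none passed the test by limma in either direction at the strongest promoter peak, with a median of -0.03, while 3 lay higher and 1 lower at an unadjusted p under 0.05. For MITF, the master regulator of pigment cells, the strongest promoter peak lay at an upstream start, and a region over a downstream start, described below, fell. The upstream peak had 270, 275 and 270 in NGFR-High and 283, 290 and 283 in Mix (log2 difference -0.11 ± 0.07, adjusted p = 0.372), slightly lower in each NGFR-High library than in any Mix library. SOX10 had 24.7, 29.7 and 24.0 against 23.3, 29.2 and 35.3 (-0.19 ± 0.17, adjusted p = 0.515). PMEL, MLANA and TYR, which encode a melanosome scaffold, an antigen of melanosomes and tyrosinase, had log2 differences of 0.23, -0.18 and -0.10.

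When every region within 1000 bases of a transcript start of these genes was counted instead, a count made after the values were seen, 6 of 54 tested regions were lower (11.1%) and none was higher by limma. Over all protein-coding genes 1013 of 18236 such regions were higher (5.55%) and 483 were lower (2.65%). MITF has several starts, and the region over a downstream start, at chr3:69935389-69937249, fell from 89.2, 84.8 and 98.7 in Mix to 55.3, 63.9 and 76.2 in NGFR-High (-0.53 ± 0.11, adjusted p = 0.000315). The transcripts that begin there include MITF-201 and MITF-205, whose starts lie at 69936587 and 69936592 on chromosome 3. The others that fell lay near transcript starts inside the annotated genes. They were in RAB27A (-0.74) and MYO5A (2 regions, -0.49 and -0.63), whose products carry melanosomes to the cell periphery. The rest were in CAPN3 (-0.61) and PMEL (-0.76, a weak peak with values between 5.17 and 11.6). The strongest promoter peaks of RAB27A (0.22), MYO5A (-0.03), CAPN3 (-0.11) and PMEL (0.23) are other regions and did not pass the test. CAPN3, MYO5A and RAB27A lie on chromosome 15, where the median log2 difference of all regions was -0.07. The MITF locus held 140 regions, of which 54 were tested, 5 were higher and 4 were lower, where 7.53% and 6.32% of tested regions were higher and lower over the loci of all coding genes. Among the tested regions of this locus the largest change was a rise at chr3:69710183-69711082, upstream of the gene, from 11.6, 10.4 and 10.2 to 41.8, 28.4 and 35.7 (1.67 ± 0.19, adjusted p = 2.66e-10).

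**Figure D5:**
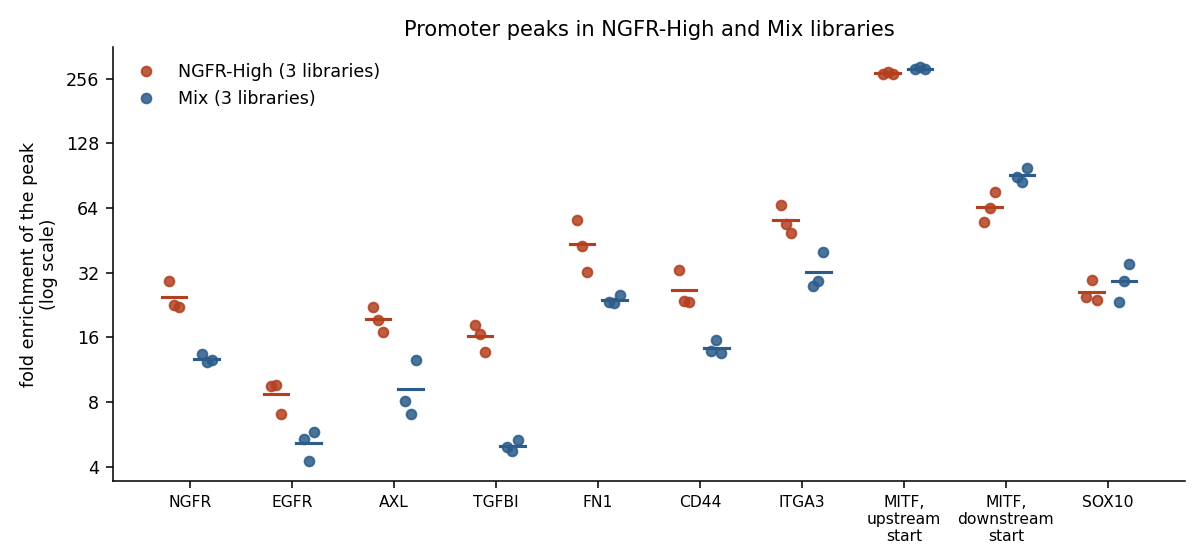
Fold enrichment (log scale) of promoter peaks in each library, with points for single libraries and bars for the mean of 3. NGFR, EGFR, AXL, TGFBI, FN1, CD44 and ITGA3 lie higher in all 3 NGFR-High libraries than in all 3 Mix libraries, the upstream start of MITF and SOX10 differ little, and the downstream start of MITF lies lower in NGFR-High.

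Some loci held several gained regions. A gained region lay within 100000 bases of the nearest coding start in 77.6% of cases, and 3022 of 17594 loci held at least 1. PDE4D, a cyclic AMP phosphodiesterase, and SVIL, the actin-binding protein supervillin, had 9 each, out of 103 and 46 regions. KCNMA1, a calcium-activated potassium channel, had 8 of 57, and MYEOV (of 20), RUNX1 (of 65) and the semaphorin SEMA5A (of 47) had 7 each. PDE4D and RUNX1 each also had 1 lost region. Of the fewer lost regions, 1050 loci held at least 1, and 10 genes shared the highest count of 3. These were AAK1 (of 13 regions), CADPS (of 110), CREB5 (of 40), CTTNBP2 (of 22) and DAB1 (of 20). The others were DLG2 (of 41), FAM171A1 (of 13), GALNT10 (of 15), KCNH8 (of 13) and TRIM25 (of 12). CADPS also had 3 gained regions, and CREB5 and CTTNBP2 had 1 each. Among regions with a peak in all 6 libraries, PRICKLE2 (of 50 tested), TNS3 (of 39) and ZBTB20 (of 39) had 10 higher ones each, beside 6, 3 and 0 lower ones. FRMD4B had the most lower ones, 13 of 67 tested, beside 4 higher ones. Over the loci of all coding genes 3.35% of regions were gained and 0.915% lost, and 7.53% of tested regions were higher and 6.32% lower.

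The authors' scRNA-seq of untreated WM989 cells offered another readout of the same genes. There the primed cells (1704 and 1139 in replicates r1 and r2) and the drug-susceptible cells (5886 and 3802) are named by the authors' state labels. They are not the cells used for ATAC-seq, and since 1 of their source wells was enriched by flow sorting on both markers, the RNA levels of NGFR and EGFR are in part set by that choice. Values are summed UMIs scaled to the same total (CPM), with exact Poisson intervals that cover counting error only. The authors removed cells with many detected genes as likely doublets, and no further doublet caller was run. NGFR had 30.1 CPM (29.3 to 30.8) in primed and 1.098 CPM (1.01 to 1.19) in drug-susceptible cells, and EGFR had 48.1 (47.1 to 49.1) and 3.37 (3.22 to 3.53). MITF had 45.7 (44.7 to 46.6) in primed and 313 (312 to 315) in drug-susceptible cells, and SOX10 had 7.09 (6.72 to 7.48) and 130 (129 to 131). The RNA of MITF and SOX10 was thus far lower in primed cells, whereas their strongest promoter peaks in the NGFR-High sort did not pass the test. The region over the downstream MITF start was lower in NGFR-High (log2 difference -0.53, adjusted p = 0.000315 by limma). KCNMA1, with 8 gained regions, had 13.4 (12.9 to 13.9) against 0.0251 CPM (0.0137 to 0.0421), and FRMD4B, with 13 lower regions, had 24.9 (24.2 to 25.6) against 268 (267 to 269). PDE4D, SVIL and MYEOV were higher in primed cells too, with 27.0 CPM (26.2 to 27.7) against 9.29 (9.04 to 9.54), 58.9 (57.8 to 59.97) against 10.7 (10.4 to 11.0) and 63.7 (62.6 to 64.8) against 4.42 (4.25 to 4.599). RUNX1, with 7 gained regions and with 4 higher and 4 lower of 37 tested, had 26.7 CPM (26.0 to 27.4) in primed and 24.2 (23.8 to 24.6) in drug-susceptible cells, and SEMA5A, also with 7 gained and with 6 higher and 5 lower of 27 tested, had 26.4 (25.7 to 27.1) and 43.1 (42.6 to 43.7). MAGI1, with 12 lower, 7 higher and 2 gained regions (52 tested), and FOXP1, with 11 lower, 7 higher and 2 gained (55 tested), had more RNA in primed cells, at 140.8 (139.2 to 142.5) against 52.7 (52.1 to 53.3) and at 178 (176 to 180.1) against 85.4 (84.7 to 86.2).

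Over all genes, loci with gained regions held larger shares of genes with higher RNA and, to a lesser extent, of genes with lower RNA in primed cells. Among the 11204 genes that reached 1 CPM in primed or in drug-susceptible cells, 10.8% lay above a log2 ratio of 1, computed on CPM plus 1. The share was 21.8% among 2097 genes with 1 or more gained regions, with a median log2 ratio of 0.19, and 36.2% among 185 genes with 3 or more, with a median of 0.43. Genes with neither a gained nor a lost region had 8.23% and a median of 0.03, and the 685 genes with 1 or more lost regions had 11.7% and a median of 0.04. Below a log2 ratio of -1 lay 9.204% of the genes with 1 or more gained regions, 13.0% of those with 3 or more, 12.1% of those with 1 or more lost regions and 5.46% of those with neither, against 6.37% of all. Of the 73 genes with 5 or more higher regions 50.7% lay above 1 and 8.22% below -1, with a median of 1.0002. Of the 33 genes with 5 or more lower regions 18.2% lay above 1 and 21.2% below -1, with a median of 0.07. These shares are descriptions over genes, which are not replicates. A locus with more regions can more readily reach such counts. The groups were not matched for the number of regions, which had a median of 5 per locus, and its part in these shares was not tested.

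Markers of other cells were examined in the same libraries. All 10 melanoma markers had a promoter peak in all 6 libraries, and none was higher or lower, with 2 higher at an unadjusted p under 0.05. Their summed fold enrichment ran from 767 to 829 in NGFR-High and from 732 to 778 in Mix. Of 8 blood markers 5, and of 8 endothelial markers 3, had no promoter peak in any of the 6 libraries, and by limma no tested member passed the test or had an unadjusted p under 0.05. The blood sums were 159 to 165 against 135 to 177, and the endothelial sums 101.5 to 101.8 against 82.5 to 95.4. Of 8 epithelial markers 3 had no promoter peak in any of the 6 libraries, and of the 5 tested EPCAM (-0.46) and GRHL2 (-0.81) were lower. The GRHL2 groups overlapped, with 20.6 in NGFR-High 2 and 19.8 in Mix 3. The epithelial sums were 139 to 153 against 171 to 178. Of 8 fibroblast markers FAP (1.28), COL1A1 (0.52) and PDGFRB (0.50) were higher, while LUM (-0.47, adjusted p = 0.0547 by limma) was the only one of the 7 tested that lay lower at an unadjusted p under 0.05, with sums of 170 to 207 against 149 to 154, and COL1A1 is also in the primed list. In the loci of the markers, 9 of the 36 regions tested were higher for fibroblast markers, and the shares higher were 17.2% for endothelial, 15.4% for blood, 6.54% for melanoma and 4.44% for epithelial markers, and 22.2% were lower for the epithelial ones. The loci of all coding genes had 7.53% of tested regions higher and 6.32% lower. The part of other cells in these values was not tested.

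Chromosomes differed in their balance of calls. On chromosome 8 12.5% of regions were lower and 6.44% higher, with a median log2 difference of -0.10, while on chromosome 5 10.7% were higher and 5.31% lower, with a median of 0.08. Chromosome 20 had the largest share of higher regions, 11.9%. The medians of the remaining chromosomes lay between -0.07 and 0.07, and the part of these shifts in single calls, among them GRHL2, RGS20 and the falls nearest to TCEA1 and HNF4G on chromosome 8, was not tested.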

How the data were processed

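The study sorted WM989 cells and made ATAC-seq libraries. As its methods and the submitters' processing notes state, the authors aligned reads to hg38 with Bowtie2 2.3.4.1, filtered them with SAMtools 1.1, removed duplicates with picard, inferred Tn5 insertions and called peaks in each library with MACS2 2.1.1.20160309. The deposited lists give fold enrichment, a ratio of the summit to the background with 1 added to each, and the −log10 of the q-value, which was used to rank and filter peaks. Every fold enrichment was a whole multiple (tolerance 0.02) of 1 step per library.

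Repeated intervals, which hold several summits, were reduced to the highest summit, and chromosomes 1 to 22 and X were kept. Regions joined peaks that overlap by at least 1 base. Log2 values were centred on the library median and tested with limma 3.58.1 in R 4.3.3 (two-sided, trend, Benjamini-Hochberg over all regions with a peak in all 6 libraries, threshold 0.05); the procedure was tested on simulated data. Annotation and sequence came from GENCODE 44 and hg38. The authors deposited UMI counts for scRNA-seq, which were summed by state and scaled to CPM; 16844 of 17594 loci matched by symbol, CCN1 and CCN2 by older symbols. Tables were made in Python 3.11.15. Alternatives varied scaling, filters, overlap, windows and libraries.

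The genes and regions named are NGFR and EGFR, the strongest changed members of each list, those with most gained or lost regions, the 10 strongest gained and lost regions and the 5 largest rises and falls; members and lists were chosen with earlier results of these data known. A listed gene that counts toward its lists is not reported here by name.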

Additional observations from a re-analysis of the deposited data

How the results depend on the processing

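The direction of the NGFR and EGFR promoter differences held in every alternative fit. With the mean of the peaks in a region, 1701 regions were higher and 1084 lower and the NGFR log2 difference was 1.38 (adjusted p = 0.0217 by limma), and with absent peaks set to the lowest value of the library 10415 were higher. With 1 library left out, 3734 to 6626 regions were higher, 3343 to 6034 lower, 6186 to 8502 gained and 2207 to 3369 lost, and the log2 difference was 0.78 to 0.99 at NGFR and 0.60 to 0.88 at EGFR. From the 50000 strongest peaks of each library 1718 regions were gained, from 100000 peaks 3274. The EGFR difference passed the threshold with no centring (0.76), with quantile normalization (0.75), with all 12 libraries in the fit (0.73), with a mean fold enrichment of at least 5 required (0.74) and without NGFR-High replicate 3 (0.88). The share at promoters was 5.95% of gained and 5.05% of lost regions with a window of 500 bases, and 12.3% and 10.6% with the 50000 strongest peaks, with which the Jaccard difference was 0.0545 in place of 0.0442. The median log2 ratio of RNA at gained loci was 0.22 within 20000 bases and 0.14 in replicate r1 alone. Same-numbered libraries share only a number (correlations of deviations 0.0719, 0.000677 and 0.0977), and with the replicate block 7470 regions were higher and 6708 lower and EGFR passed the threshold (0.73). The cause of these changes was not tested. Libraries of unknown depth limit the weakest peaks, which rest on 5 or 6 overlapping insertions.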
